A study of Bos grunniens with 6 samples.

Results

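N6-methyladenosine (m6A) peaks that lay in 3' untranslated regions and spanned at most 1000 bp were examined in testis tissue of cattle-yaks, the hybrids of cattle and yak whose F1 males are sterile. The members were all peaks of the deposited list with the annotation class 3' UTR and a width of 1000 bp or less, here called narrow 3' UTR peaks. There were 2268 of them among 16186 peaks, or 14.0% (Wilson 95% interval 13.5% to 14.6%), and they made up 67.2% (65.6% to 68.8%) of the 3373 peaks of the 3' UTR class. They fell on 1962 of the 8986 gene identifiers with any peak (21.8%). Intervals of shares cover counting error only, since neighbouring peaks and genes are not replicates.

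The tissue came from 3 healthy cattle-yaks, each 5 years of age and castrated for sampling, which are called TES5, TES6 and TES7. From each animal, fragmented poly(A) RNA was sequenced before (input) and after (IP) pull-down with an antibody against m6A, which gave 6 libraries in 1 condition. The IP and input libraries of the animals led to a single list of peaks for the group, with neither scores nor values of single animals, and no peak can therefore be given with an error. Expression was available as FPKM (fragments per kilobase of transcript, scaled to the fragments of the library) in the 3 input libraries, and these values keep no read numbers, so the depth behind a gene's value is unknown from the files. Whole testis holds germ cells and somatic cells together, and more cells of a type cannot be told apart from more RNA per cell. Of the germ cell and somatic markers looked up, 3 of 9 for Sertoli cells, 1 of 8 for Leydig cells, 5 of 5 for peritubular myoid cells, 4 of 9 for spermatogonia, 5 of 8 for spermatocytes and 1 of 8 for spermatids could be matched, since symbols are paired with identifiers mainly in the peak list. Matched markers ranged widely, from *ACTA2* of myoid cells (226, 254 and 232 in TES5, TES6 and TES7) and *STAR* of Leydig cells (100.2, 108 and 112) to *GFRA1* of spermatogonia (0.572, 0.936 and 0.863). The other matched spermatogonia markers stood higher than *GFRA1*, with *KIT* at 8.64, 9.23 and 12.2, *ZBTB16* at 6.61, 8.76 and 11.2 and *NANOS3* at 8.44, 6.75 and 9.02. *SYCP3* of spermatocytes stood at 24.4, 18.0 and 19.8 and *SYCP1* at 6.71, 4.76 and 4.85. Identifiers of *SYCP2* stood at 7.32, 6.14 and 3.69, at 4.98, 4.46 and 3.64, at 0.77, 0.883 and 0.749, and at 0 in every animal. *DMC1* ran from 0.446 to 21.4 over its identifiers and animals, and *MEIOB* stood at 9.51, 5.1 and 6.48. The single spermatid marker matched, *TSSK1B*, had an identifier at 14.2, 13.1 and 12.7 and another at 1.79, 1.27 and 0.179, so spermatids could not be checked well by FPKM. In the study's stained sections of cattle-yak testis, germ cells were mainly a layer of spermatogonia, with few spermatocytes. Its discussion describes Sertoli cells and spermatogonia alone inside the tubules.

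m6A is the most common internal mark of mammalian mRNA. It is written by a nuclear complex built on METTL3 and METTL14 with VIRMA as a scaffold, removed by ALKBH5 and FTO, and read by YTH domain and IGF2BP proteins. The mark is known to gather around stop codons and in 3' untranslated regions (3' UTRs), the stretch of an mRNA behind its coding sequence where microRNAs and RNA-binding proteins dock and where transcript stability and translation are set. In the testis the mark is known to be needed for spermatogonia and for meiosis.

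Below the limit of 1000 bp that the selection sets, the widths clustered at regular steps. Their median width was 296 bp, the quartiles were 199 and 448 bp, and the extremes 144 and 1000 bp. Of the 2268 peaks, 31.9% (30.0% to 33.9%) were at most 200 bp wide, 57.1% at most 300 bp and 80.6% at most 500 bp. Within 2 bp of a multiple of 50 bp lay 67.0% (65.0% to 68.9%) of the widths, with 395 peaks near 150 bp, 329 near 200 bp and 241 near 250 bp. The narrowest peaks, of 144 bp, lay in the 3' UTR class of *MAT2B* and of *GOSR1*, a Golgi SNARE protein. The symbol *MAT2B* names a regulatory subunit of methionine adenosyltransferase, which makes the methyl donor of RNA methylation. It stood on 2 identifiers with a peak, and the transcript listed for this peak spanned only 1481 bp. Just inside the width limit stood *TOR1AIP1* and *CACNA1H*, both at 1000 bp, and *DMAP1* at 998 bp, while *IREB2* at 1001 bp, *PHC1* at 1006 bp and *MMP14* at 1009 bp stood just outside it.

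**Figure D1:**
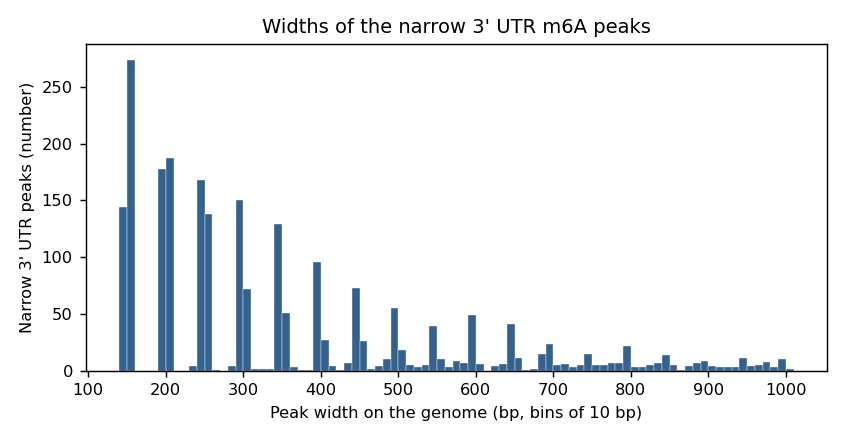
Number of narrow 3' UTR peaks (vertical axis) by peak width on the genome in bins of 10 bp (horizontal axis), over all 2268 peaks of the pooled list. The peaks stand in clusters near multiples of 50 bp, with the tallest bin, 274 peaks, from 150 bp.

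Most genes carried a single narrow 3' UTR peak. This held for 1701 of 1962 genes (86.7%, 85.1% to 88.1%), while 225 genes carried 2, 32 genes carried 3, and 4 genes carried 4 or more. Between neighbouring narrow peaks of the same gene the median gap was 295.5 bp (306 gaps, quartiles 147 and 692 bp), 83.7% of gaps were at most 1000 bp and 19 neighbours overlapped. Joining peaks of a gene that lay within 100 bp of each other left 2195 peaks and 89.3% of genes with a single one. None of the 2268 peaks overlapped a narrow 3' UTR peak listed for another gene.

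The genes with the most narrow 3' UTR peaks showed different layouts. *TMC4* (ENSBGRG00000019600), a transmembrane channel-like protein, carried 6 on chromosome 20 of the build LU_Bosgru_v3.0, but they formed 3 near-duplicate pairs, such as 52698577 to 52698777 and 52698596 to 52698795, and joined into 2 stretches. *SERHL2* (ENSBGRG00000012024), a serine hydrolase-like protein, also carried 6, on chromosome 5 from 121992718 to 121994771, and these joined into 4. *TGFBRAP1* (ENSBGRG00000005800), an adaptor that binds TGF-beta receptors, carried 5 on chromosome 9 between 27514078 and 27515916, which joined into 3. They stood from 819.5 to 2409 bp before the end of its transcript. *AEN* (ENSBGRG00000012912), a nuclease induced in apoptosis, carried 4 separate peaks on chromosome 17 between 19995570 and 19998106. Among these 4 genes, *SERHL2* was hardly expressed, with an FPKM of 0.239, 0.188 and 0.229 in TES5, TES6 and TES7. *TMC4* stood at 2.11, 1.94 and 5.23, with TES7 above the other animals.

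Narrow 3' UTR peaks sat close to the 3' end of the transcript listed with them. Their selection largely set this, since a 3' UTR is the last part of a transcript, and the values below describe the distances. The median distance from a peak's centre to that end was 630.5 bp along the genome (95% interval of the median 594 to 672.5 bp, quartiles 298.5 and 1145 bp), which is 97.6% of the way along a transcript span whose median was 28009.5 bp. Within 1000 bp of the end lay 69.3% (67.3% to 71.1%) of the peaks. By distance, 18.1% were centred less than 250 bp before the end, 21.2% from 250 to 500 bp, 27.1% from 500 to 1000 bp and 17.0% from 1000 to 2000 bp. All 2268 peaks overlapped their listed transcript and 95.4% lay wholly inside it.

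Other peaks had other positions. The 1105 wide 3' UTR peaks, whose median width of 4128 bp exceeds the distance limit used, had their centres a median of 2717 bp before the end, and 12.7% (10.8% to 14.8%) within 1000 bp. The 1450 exon class peaks of at most 1000 bp in the last exon of their transcript (narrow last exon peaks) were centred a median of 399.5 bp before the end, and 70.4% (68.0% to 72.7%) lay within 1000 bp, a share whose interval overlaps that of the narrow 3' UTR peaks. Less than 250 bp before the end lay 31.8% (29.4% to 34.2%) of the narrow last exon peaks, against 18.1% (16.6% to 19.8%) of the narrow 3' UTR peaks. For the 3740 other exon class peaks of at most 1000 bp, the median distance was 7651 bp. UTR classes rank above exons in ChIPseeker's default order, but the settings used for this list are not given in the sources used here. Under that order, an exon class peak would overlap no annotated 3' UTR. Narrow last exon peaks close to the listed end would then lie where the annotation holds little or no 3' UTR. The listed ends of these classes may therefore not be comparable, and the distances do not show which class lies nearer to the actual mRNA end. No test was made of these differences, since the list gives no value per animal.

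**Figure D2:**
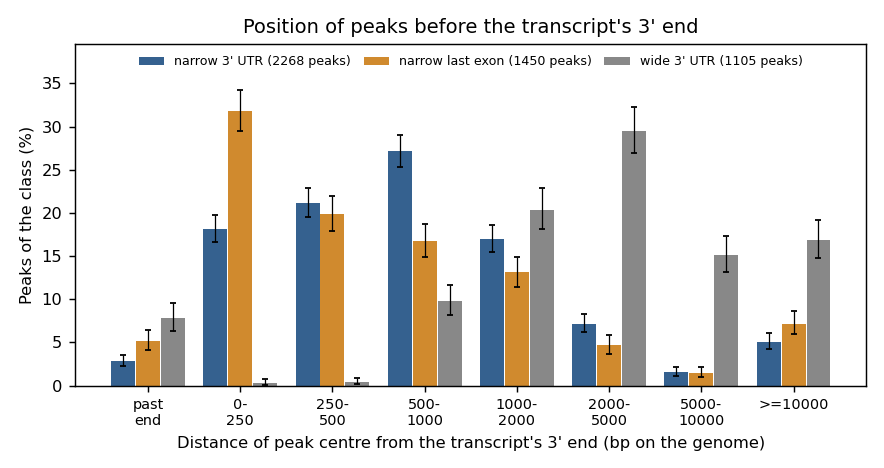
Share of the peaks of each class in percent (vertical axis) by distance of the peak centre from the 3' end of the listed transcript in bp (horizontal axis), for narrow 3' UTR, narrow last exon and wide 3' UTR peaks of the pooled list; bars are shares and whiskers Wilson 95% intervals. Narrow 3' UTR peaks are most frequent from 500 to 1000 bp (27.1%), narrow last exon peaks below 250 bp (31.8%) and wide 3' UTR peaks from 2000 to 5000 bp (29.5%).

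A smaller set lay far from the listed 3' end. More than 10000 bp before it were 115 peaks (5.07%, 4.24% to 6.05%), and 89 (3.92%) lay in the 5' 50% of the span. The farthest was on *KCNIP1*, a potassium channel-interacting protein, at 440601 bp, followed by *AGMO*, an ether lipid monooxygenase, at 289528.5 bp. *NAPG*, a gamma-SNAP protein of membrane fusion, had 2 such peaks, at 192191 and 191572 bp, and *PCSK5*, a proprotein convertase, had a peak at 175469 bp. The 3 narrow peaks of *HSP90AB1*, a cytosolic chaperone, stood 25638, 26129.5 and 30189 bp before the end of a listed transcript of 37744 bp. A class of 3' UTR follows from overlap with a 3' UTR of the annotation, and whether these peaks lie in the UTR of another transcript of the gene was not analysed here. Of the 89 peaks in the 5' 50% of the span, 7 overlapped the listed transcript of another gene with a peak, as did 72 of the other 2179.

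The position differed between the strands of the genes. Of the narrow 3' UTR peaks, 1257 (55.4%, 53.4% to 57.5%) were listed for genes on the plus strand and 1011 for genes on the minus strand, whereas 50.9% (49.9% to 52.0%) of all genes with a peak were on the plus strand. The median distance to the 3' end was 522.5 bp (488 to 572.5 bp) on the plus strand and 774 bp (715.5 to 835 bp) on the minus strand. Centres past the end of the listed transcript occurred 64 times on the plus strand (5.09%) and 0 times of 1011 on the minus strand. A peak edge fell exactly on the listed 3' end in 11.2% (9.59% to 13.1%) of peaks on the plus strand and in 5.64% (4.38% to 7.23%) on the minus strand. Within 1000 bp of the end lay 75.0% (72.6% to 77.3%) and 62.1% (59.1% to 65.1%), respectively.

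The difference between strands was seen on most chromosomes and also over genes with a single peak. On 26 of the 31 chromosomes with narrow 3' UTR peaks the median distance was smaller for plus strand genes, and 23 of the 31 held more of these peaks on plus strand genes. Over genes with a single narrow 3' UTR peak, the medians were 483.5 bp (445 to 522.5 bp) and 673.75 bp (616.5 to 736.5 bp). Wide 3' UTR peaks had medians of 2299.75 bp on the plus strand and 3298.5 bp on the minus strand. At the other end of genes the order was turned around, since 268 narrow 5' UTR peaks on the plus strand stood a median of 468.5 bp behind the listed 5' end and 333 on the minus strand 324.5 bp. In these UTR classes, peaks thus stood nearer to the listed end with the higher genome coordinate. Narrow last exon peaks did not show such a gap in the median, with 394.25 bp (324 to 448 bp) on the plus and 417 bp (370.5 to 469 bp) on the minus strand and 32 centres past the end on the minus strand. Their edge fell exactly on the listed 3' end in 28.9% (25.8% to 32.2%) of peaks on the plus and 13.3% (10.9% to 16.0%) on the minus strand. Median widths were 297 bp and 296 bp for narrow 3' UTR peaks on the plus and minus strand. What brings this about was not tested.

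**Figure D3:**
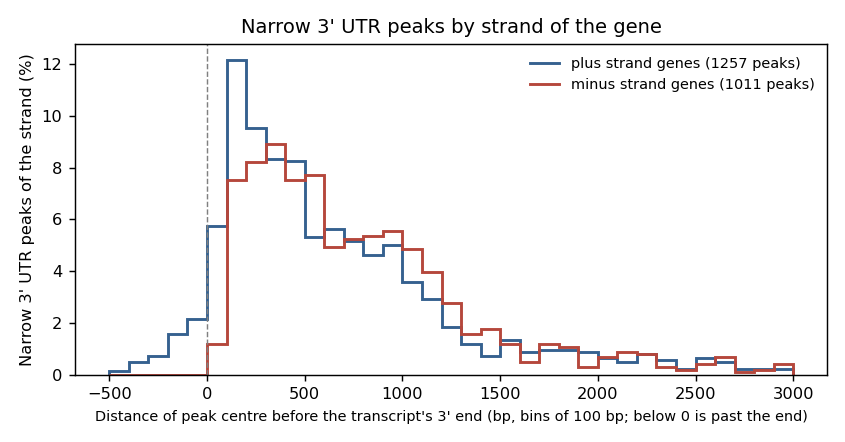
Share of the narrow 3' UTR peaks of each strand in percent (vertical axis) by distance of the peak centre before the 3' end of the listed transcript in bins of 100 bp (horizontal axis, from -500 to 3000 bp), for 1257 peaks on plus strand genes and 1011 on minus strand genes of the pooled list. The plus strand line is higher near the end, with 12.2% of its peaks from 100 to 200 bp and some past the end, where the minus strand has none.

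Wider peaks were not farther from the 3' end once their own width was set aside, and they lay on genes of higher FPKM. For peaks of at most 200 bp (724 peaks) the median distance was 549 bp, and it was 566 bp for 201 to 300 bp, 694 bp for 301 to 500 bp and 736 bp for 501 to 1000 bp (440 peaks). These distances run from the peak centre and so hold 0.5 of the peak's width. From the peak edge nearest to the 3' end, the medians were 450 bp (442 to 537 bp), 444 bp, 495 bp and 399 bp (327 to 491 bp) in the same order. The genes of the narrowest class had a median FPKM of 5.82, 5.90 and 5.92 in TES5, TES6 and TES7, and those of the widest class 9.20, 9.32 and 9.46. The animals share the genes of a class, so their agreement does not measure the spread over genes. Across the 2268 peaks, Spearman's rho was 0.13 between width and the distance of the centre, -0.05 between width and the distance of the edge and -0.07 between width and transcript span, as a description, since these peaks share the same libraries. Among genes with a peak, the share with a narrow 3' UTR peak was 12.7% (11.1% to 14.6%) for listed transcripts spanning at most 5000 bp, 26.5% up to 10000 bp, 27.6% up to 20000 bp and from 21.3% to 22.2% in the longer classes.

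The same genes often carried peaks elsewhere. An exon class peak was present on 861 of the 1962 genes (43.9%, 41.7% to 46.1%), a 5' UTR class peak on 237 (12.1%) and a wide 3' UTR peak on 152 (7.75%), while the narrow 3' UTR class was the whole set of peaks for 916 genes (46.7%, 44.5% to 48.9%). Genes with a wide 3' UTR peak carried an exon class peak at a like share (45.5%, 42.6% to 48.5%) and no other peak in 40.0% of cases (37.1% to 43.0%). Exon class peaks of at most 1000 bp were found on 22.2% (20.4% to 24.1%) of genes with a narrow 3' UTR peak and on 16.4% (14.3% to 18.7%) of genes with a wide one. Peaks of the exon, 5' UTR and narrow 3' UTR classes stood together on 120 genes (6.12%).

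Genes with a narrow 3' UTR peak had a median FPKM between that of genes with a wide 3' UTR peak and that of genes with a narrow last exon peak. It was close to that of genes with a narrow 5' UTR peak. The median FPKM over the 1960 of these genes with a value was 7.46, 7.62 and 7.73 in TES5, TES6 and TES7 (7.60 ± 0.13, SD, n = 3). It was 9.92 ± 0.0135 for genes with a wide 3' UTR peak, 4.40 ± 0.0232 for genes with a narrow last exon peak and 7.43 ± 0.177 for genes with a narrow 5' UTR peak. For all genes with peaks other than narrow 3' UTR ones it was 7.18 ± 0.0201, and for genes without a peak 0.182 ± 0.0274. On the log2(FPKM + 1) scale, the median of the genes with a narrow 3' UTR peak exceeded that of the other genes with a peak by 0.053, 0.073 and 0.093 in the 3 animals (0.073 ± 0.020, SD, n = 3). Where every input library had to reach an FPKM of 1, this difference was -0.0090, so its direction rests on genes of low FPKM. With 3 animals, an exact sign-flip permutation test (two-sided) cannot give a p below 0.25, and no test was made.

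Expressed genes were those that reached an FPKM of 1 in every input library. They included 1748 of the 1960 genes with a narrow 3' UTR peak and an FPKM value (89.2%, 87.7% to 90.5%). The share was 86.3% (85.5% to 87.1%) for the other genes with a peak. For genes with a narrow 5' UTR peak it was 89.3% (86.4% to 91.6%), and for those with a wide 3' UTR peak 95.3%. Of the 1960 genes, 160 had a mean FPKM under 1, among them 3 listed at 0 in every library. The 1748 were 15.3% of the 11402 expressed genes, and wide 3' UTR peaks were found on 8.94%. These 11402 expressed genes were placed in 10 classes of equal size by mean FPKM. The share with a narrow 3' UTR peak went from 14.5% (12.5% to 16.6%) in the lowest class to 18.9% (16.7% to 21.2%) in class 6, from 9.63 to 13.0 FPKM, and was 8.15% (6.70% to 9.88%) in the highest class, above 47.0 FPKM. The share with any peak was 61.3%, 74.5% and 42.0% in the same classes. Of the genes with any peak, 23.6% (20.6% to 26.9%), 25.3% (22.5% to 28.4%) and 19.4% (16.1% to 23.2%) carried a narrow 3' UTR peak there, with overlapping intervals.

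**Figure D4:**
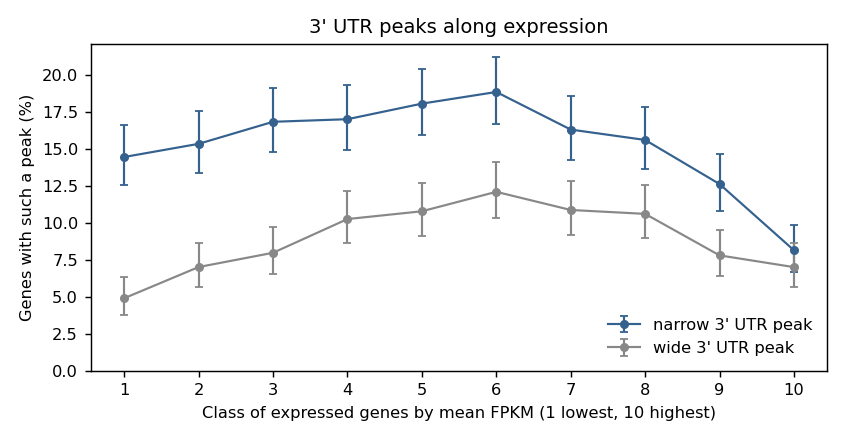
Share of genes with a narrow or a wide 3' UTR peak in percent (vertical axis) by 10 classes of equal size of the 11402 expressed genes, ordered by mean FPKM (horizontal axis, lowest to highest); points are shares and whiskers Wilson 95% intervals. Both lines are highest in class 6, at 18.9% and 12.1%, and the narrow 3' UTR share is lowest in class 10, at 8.15%.

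Genes with more narrow 3' UTR peaks were not the more expressed ones. The median FPKM was 7.68 ± 0.16 (SD, n = 3 animals) for the 1701 genes with a single peak, 7.56 ± 0.13 for the 225 with 2 and 4.48 ± 0.32 for the 36 with 3 or more. In the latter, the animals stood at 4.22, 4.38 and 4.84, below every animal of the other classes. The animals share the same 36 genes, so their agreement does not measure how uncertain a median over so few genes is. The median distance of the peaks from the 3' end was 563.5, 859.5 and 1222.5 bp in the 3 classes.

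The most highly expressed genes with a narrow 3' UTR peak included secreted and transport proteins. *AARD* (ENSBGRG00000003909), an alanine- and arginine-rich protein, stood at an FPKM of 1754, 1431 and 1438 in TES5, TES6 and TES7, with TES5 highest. Its only peak was 578 bp wide, on chromosome 18 from 37396307 to 37396884, and 336.5 bp before the 3' end. *SPARC*, a secreted matrix protein made by Sertoli cells among others, stood at 403, 375 and 396, and its narrow 3' UTR peak of 201 bp lay 647 bp before the end. *SLC34A3*, a sodium-phosphate cotransporter, stood at 447, 321 and 292 (353 ± 82.6, SD, n = 3), with TES5 above the other animals. *SERPINA5*, a serine protease inhibitor of the male reproductive tract, stood at 355, 296 and 325. *HSP90AB1* stood at 215, 204 and 230.0.

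Between animals, the median coefficient of variation over the 1748 expressed genes was 11.0%, and it was 11.7% for expressed genes with other peaks only. The highest animal exceeded the lowest more than 2-fold for 55 of the 1748 (3.15%, 2.43% to 4.07%) and for 610 of all 11402 expressed genes (5.35%, 4.95% to 5.78%). Above a mean FPKM of 10, the spread was widest for *THOC3*, a subunit of the THO mRNA export complex, at 37.0, 21.1 and 6.66 in TES5, TES6 and TES7. *RDM1*, an RNA-binding protein related to RAD52, stood at 20.0, 14.0 and 4.52, and *PRSS45P*, a serine protease pseudogene by its symbol, at 19.4, 8.77 and 6.35. *YPEL1* stood at 14.5, 10.7 and 5.16. In these 4 genes TES5 was highest and TES7 lowest. *PRELP*, a matrix proteoglycan, stood at 27.6, 13.1 and 13.6, with TES5 above the others. The symbols *THOC3* and *PRSS45P* were carried by 3 and 5 identifiers with a peak, so reads may have been split between copies and their values are uncertain. The same holds for *AEN*, *VIRMA*, *NFE2L3*, *JAG1*, *HENMT1*, *PAN3*, *PUM2*, *ID1*, *TSSK1B*, *MAT2B*, *CACNA1H* and *DMAP1*, whose symbols stood on 2 or 3 identifiers.

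Gene groups were counted by symbol, and of the 7802 symbols with any peak, 1896 (24.3%) carried a narrow 3' UTR peak and 13.5% a wide one. With few members each, the groups have wide intervals, which included 24.3% for every list but 3' end processing. Counts are given below over the members of a group that carried any peak, since a symbol could be matched mainly there. Coordinates refer to LU_Bosgru_v3.0.

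Of the m6A machinery, 4 genes carried a narrow 3' UTR peak. Of 7 writers with a peak it was *VIRMA*, the scaffold of the writer complex, with a peak of 200 bp on chromosome 18 from 62110304 to 62110503, 198.5 bp before the 3' end, beside 5 exon class peaks of the same identifier. *VIRMA* stood at an FPKM of 24.3, 24.2 and 27.1 in TES5, TES6 and TES7. Of the 2 erasers it was *ALKBH5*, the demethylase needed for male fertility in mice, with a peak of 199 bp on chromosome 19 from 32761260 to 32761458 and an FPKM of 85.9, 73.0 and 73.2, TES5 being highest. Of 12 readers, *IGF2BP3*, a reader of the IGF2BP family that stabilizes its targets, carried a peak 671.5 bp before the end and stood at 1.65, 2.45 and 1.89. *RBMX*, an X-linked nuclear RNA-binding protein, carried one 1843 bp before the end and stood at 27.9, 32.1 and 32.9. *METTL14*, *RBM15*, *FTO*, *YTHDC1*, *YTHDC2* and *YTHDF2* had peaks, but none of this kind.

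Factors of mRNA decay and of small RNAs carried narrow 3' UTR peaks at shares whose intervals include 24.3%. In the group of the CCR4-NOT deadenylase and other decay factors, 12 of 36 did (33.3%, 20.2% to 49.7%), among them *CNOT1*, the scaffold of CCR4-NOT, at an FPKM of 45.9, 48.6 and 49.6 with 2 overlapping peaks. *DDX6*, a helicase that represses translation and promotes decapping, stood at 34.5, 41.7 and 44.0, *ZFP36L2*, which binds AU-rich elements in 3' UTRs, at 32.6, 31.2 and 35.9, and *SMG5*, a factor of nonsense-mediated decay, at 22.3, 20.2 and 22.2. The peak of *DDX6* spanned 147 bp and was centred 73 bp before the end of its transcript. *PAN3*, a subunit of a deadenylase, stood at a mean of 11.6 ± 2.24 (SD, n = 3).

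The microRNA pathway held 4 of 13 (30.8%, 12.7% to 57.6%). *DGCR8*, the RNA-binding subunit of the microprocessor, carried 3 narrow 3' UTR peaks listed with 2 transcripts and stood at 39.3, 30.3 and 32.4. *DICER1*, the nuclease that cuts microRNA precursors, carried a peak of 830 bp and stood at 20.4, 25.2 and 28.4, with TES5 lowest. *TNRC6C*, a scaffold of the silencing complex, stood at 3.00, 3.30 and 2.86, and *AGO4*, an Argonaute protein, at 0.617, 1.07 and 0.925. Proteins that bind 3' UTRs held 4 of 17 (23.5%, 9.56% to 47.3%), namely *CPEB2* (13.1 ± 0.43, SD, n = 3), *STAU2* (13.8 ± 0.645), *ELAVL2* (8.70 ± 1.62) and *PUM2* (1.68 ± 0.40). The 3' end processing group held 0 of 14 (0% to 21.5%), while 5 of its 14, *CPSF3*, *CPSF6*, *PAPOLG*, *SYMPK* and *WDR33*, carried a wide 3' UTR peak.

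Of the piRNA pathway, which guards the germ line against transposons, 5 of 11 genes with a peak carried a narrow 3' UTR peak (45.5%, 21.3% to 72.0%) and 0 of 11 a wide one. *PIWIL2*, a PIWI protein that binds piRNAs in fetal and meiotic germ cells, had 2 such peaks on chromosome 7 from 4544368 to 4544867, within 100 bp of each other and listed with different transcripts, and stood at 14.6, 17.1 and 17.1. *PLD6*, a mitochondrial factor of piRNA formation, stood at 16.6, 15.0 and 18.2. *TDRD9*, a helicase with a Tudor domain, stood at 14.0, 13.1 and 10.4, and *TDRD5* at 11.3, 11.0 and 4.37, with TES7 below the other animals. *HENMT1*, which methylates the 3' ends of piRNAs, stood at 2.85, 3.15 and 2.85. Meiosis genes held 2 of 22 (9.09%, 2.53% to 27.8%). These were *BRCA1*, a repair factor, at 10.2, 11.0 and 12.4, and *HORMAD2*, a protein of unsynapsed chromosome axes, at 28.1, 16.3 and 15.4, with TES5 highest.

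**Figure D5:**
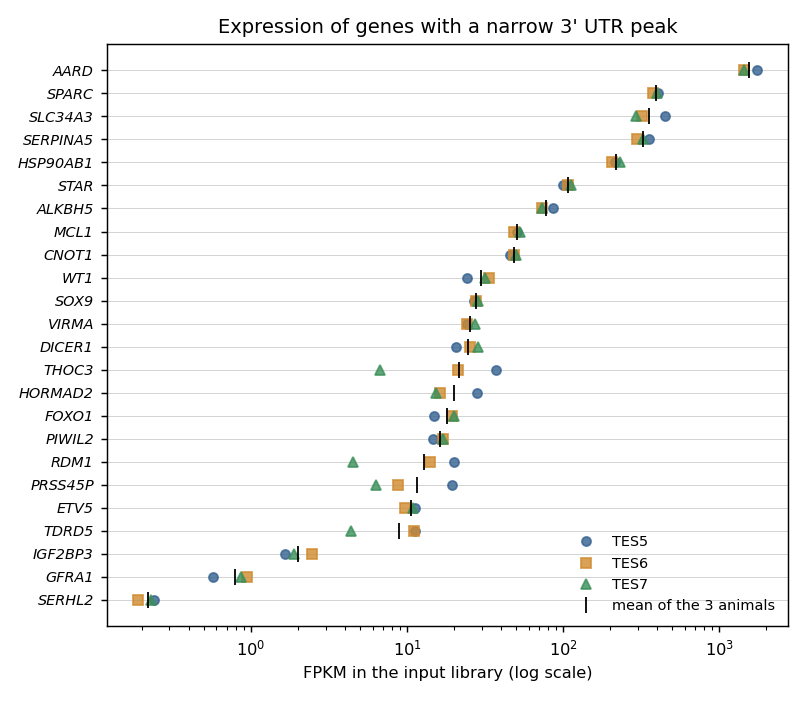
FPKM in the input library on a log scale (horizontal axis) of named genes with a narrow 3' UTR peak (vertical axis, ordered by mean), with a symbol for each of the 3 animals and a bar for their mean. The values run from *SERHL2* near 0.219 to *AARD* near 1541, and the animals lie close together except for genes such as *THOC3*, *RDM1*, *PRSS45P* and *TDRD5*, where TES7 is lowest.

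Genes that mark cell types of the testis carried narrow 3' UTR peaks in several cases. In Sertoli cells, the somatic nurse cells of the tubule, they were found on 2 of 5 genes with a peak, *SOX9*, the factor that sets Sertoli cell fate (27.5 ± 0.81, SD, n = 3), and *WT1*, a zinc finger factor of the gonad. *WT1* stood at 24.0, 33.3 and 31.5 with its peak of 150 bp 469.5 bp before the end, and *SOX9* had a peak of 448 bp beside 2 exon class peaks. *STAR*, which moves cholesterol into mitochondria for steroid synthesis in Leydig cells, carried 2 peaks 447 and 124.5 bp before the end and stood at 100.2, 108 and 112. *DES*, the muscle intermediate filament also found in peritubular myoid cells, was 1 of 5 in its group and stood at 24.9, 30.9 and 24.7. Among genes of spermatogonia it was 3 of 8, with *FOXO1*, a factor of spermatogonial stem cells, at 14.9, 19.4 and 19.9, *ETV5*, which responds to GDNF, at 11.3, 9.67 and 10.9, and *GFRA1*, the GDNF co-receptor, at 0.572, 0.936 and 0.863. Of the 2 spermatid genes with a peak, *TSSK1B*, a testis-specific kinase, carried one of 994 bp and stood at 14.2, 13.1 and 12.7.

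Signalling groups were also represented. Notch signalling held 6 of 17 (35.3%, 17.3% to 58.7%), with the ligands *JAG1* and *JAG2*, the protease *ADAM17*, the gamma-secretase subunit *NCSTN*, the inhibitor *NUMBL* and the coactivator *MAML2*. *NCSTN* stood at 18.6, 21.9 and 20.0 and *ADAM17* at 17.3, 15.8 and 18.6. The symbol *JAG1* belonged to 2 identifiers on opposite strands of chromosome 12. Their listed transcripts, 87855236 to 87906952 and 87923755 to 88010839, did not overlap, and each narrow 3' UTR peak lay inside that of its own identifier. Which identifier the symbol names is uncertain. TGF-beta signalling held 8 of 27 (29.6%, 15.9% to 48.5%). There the ligand subunit *INHBA* stood at 16.3, 16.5 and 13.7, the mediators *SMAD2* and *SMAD4* at means of 14.3 ± 1.53 and 13.7 ± 2.64 (SD, n = 3), the ubiquitin ligase *SMURF2* at 9.84 ± 0.52, the receptor *ACVR2B* at 7.18 ± 0.63 and the target *ID1* at 3.17 ± 0.75. *BMP2* and *BMP6* completed the group.

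Among genes of cell death and DNA repair, apoptosis held 4 of 16 (25.0%, 10.2% to 49.5%). They were *MCL1*, a short-lived survival protein, at 50.4, 48.3 and 52.8 with its peak 800 bp before the end, *MDM2*, the ligase that degrades p53, at a mean of 8.79 ± 1.42 (SD, n = 3), *ENDOG*, a mitochondrial nuclease, at 10.5, 6.81 and 6.35, and *CFLAR*, an inhibitor of caspase 8, at 3.12, 4.28 and 4.76. The Fanconi anemia pathway of crosslink repair held 2 of 14 (14.3%, 4.01% to 39.9%), *FANCC* (4.42 ± 1.54, SD, n = 3) and *ERCC4* (3.78 ± 0.66).

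A further list of 20 genes held qPCR targets, examples and genes the study discussed from earlier work by others on yak and cattle-yak testes. Of these, 10 had a peak in the list used here and 4 carried a narrow 3' UTR peak. *CNST*, a connexin recycling protein, had 2, at 16129 and 16596 bp before the end of its listed transcript, and stood at 2.08, 2.14 and 2.60. *NFE2L3*, a stress response factor, stood at 13.4, 14.0 and 13.7, *PCYOX1L* at 6.08, 6.55 and 6.41 and *NLRP14*, a germ cell protein, at 1.66, 1.69 and 2.72. Part of that list had been chosen on these samples, and its share is not independent evidence.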

How the data were processed

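MeRIP-seq libraries of 3 cattle-yak testes (IP and input) were used in 1 group. Per the labels and the study's methods, the authors trimmed reads with Trimmomatic, removed ribosomal reads with SortMeRNA, aligned with HISAT2 (2.0.4 in the submitters' processing notes) to the yak genome LU_Bosgru_v3.0 with Ensembl release 99 genes, called peaks with MeTDiff against input and annotated them with ChIPseeker. In ChIPseeker's default order UTR classes rank above exons, and a peak crossing a stop codon would be classed as UTR. Whether that order was used here is not stated. The deposited list holds positions and widths in bp on the genome, introns included. The authors also deposited FPKM for 20953 genes, and the program behind them is not given in the sources used here. FPKM are not counts, so no count model was used. No column of another series was present.

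Here, rows with class 3' UTR and width of at most 1000 bp were selected and joined to FPKM by gene identifier, and 2 of 1962 genes had no FPKM. Distances run along the genome from the peak centre to the 3' end of the listed transcript, and coordinates are 1-based. Shares carry Wilson 95% intervals and medians 95% order-statistic intervals. FPKM are given per animal with mean and SD (n = 3), on log2(FPKM + 1) for differences. The SD of a median FPKM is between animals and does not cover the spread over genes. With 1 condition and a pooled list, no test between groups was possible. Other width limits, joining of peaks, counting by symbol, FPKM minimums, pseudocounts, rescaled libraries and leaving out each animal were tried. The procedures were tested on simulated data. Tools were SciPy 1.17.1 for intervals, pandas 2.3.3 with numpy 2.4.6 for tables, matplotlib 3.10.9 for plots, all under Python 3.11.15.

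The members and the 19 gene lists were chosen with earlier results of these data known. Genes are named by rule: the 5 with most narrow 3' UTR peaks, the 5 with highest mean FPKM, the 5 with the largest coefficient of variation at a mean FPKM of at least 10, the 3 peaks on each side of the width limit, the narrowest peak, the 5 peaks farthest from the 3' end, up to 6 per list by mean FPKM, and genes the study measured by qPCR, drew or discussed from earlier work, where the last kind is an addition to the rule. A few more list members are named without values. A gene that the rule names is not reported here. Sequence and motifs were not analysed here, as no genome of this build was used.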

Additional observations from a re-analysis of the deposited data

How the results depend on the processing

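Of 42 alternatives over 10 results, 31 left the value within its interval, 1 SD between animals or, for numbers, a factor of 1.5. Part of these 31 could not have moved and say nothing on robustness. All 2268 peaks were unique intervals that overlapped their listed transcript, so those settings kept the same set. Leaving out 1 of 3 animals cannot shift a mean over animals by 1 SD. The difference in median log2(FPKM + 1) from the other genes with a peak, 0.073, turned to -0.0090 with genes of at least 1 FPKM in every library. The share of genes with a single narrow 3' UTR peak moved from 86.7% to 83.9% by symbol and to 89.3% after joining peaks within 100 bp. The median distance to the 3' end moved from 630.5 bp to 448 bp from the nearest edge and to 593.75 bp for peaks of at most 500 bp, and to 522.5 bp and 774 bp on plus and minus strand genes, a split chosen after seeing the data. The share of genes with an exon class peak moved from 43.9% to 52.0% by symbol, 22.2% for exon class peaks of at most 1000 bp and 46.2% at 1 FPKM or more. The median coefficient of variation moved from 11.0% to 8.46% at a minimum FPKM of 10. The change with the edge, the symbols and the narrower exon peaks follows from what was counted, and for the others the cause was not tested. Leaving out each animal gave a median FPKM of 7.54 to 7.67, a log2 difference of 0.063 to 0.083 and a share of expressed genes of 15.0% to 15.3%. The motif alternative was not run, as no genome of this build was used here. No paired analysis was possible because the IP and input libraries share animal numbers but the peak list is pooled and FPKM were used for the input libraries only. The list has no scores, and the FPKM keep no depth, so neither the certainty of a peak nor a detection limit of a gene could be given.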

Other observations

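Narrow 3' UTR peaks were also counted over 11 groups of genes that share the start of their symbol, and no difference between groups was tested. The groups were chosen with their values in view, and their shares are a description beside the 24.3% of all symbols with a peak. Of 127 SLC genes (solute carriers) with a peak, 53 carried a narrow 3' UTR peak (41.7%, Wilson 95% interval 33.5% to 50.4%) and 9 a wide one. Of 72 TMEM genes (transmembrane proteins) it was 27 (37.5%, 27.2% to 49.0%), and of 30 RAB genes (small GTPases of vesicle transport) 12 (40.0%, 24.6% to 57.7%). Of 181 ZNF genes (zinc finger proteins) it was 35 (19.3%, 14.2% to 25.7%), of 37 USP genes (ubiquitin-specific proteases) 6 (16.2%) and of 33 ZBTB genes (zinc finger factors with a BTB domain) 4 (12.1%, 4.82% to 27.3%). The share was 21.4% of 28 KIF genes, 18.9% of 37 FBXO, FBXL and FBXW genes, 16.7% of 36 ARHGAP and ARHGEF genes, 14.8% of 27 TRIM genes and 13.3% of 15 PCDH genes, with intervals that include 24.3%.

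Narrow 3' UTR peaks were found on every assembled chromosome, and their share of all peaks there ran from 8.71% on chromosome 29 (23 of 264 peaks) to 19.0% on chromosome 26 (104 of 546). It was 11.0% (8.66% to 14.0%) on chromosome X, with 59 of 534 peaks, and 18.8% (12.2% to 27.7%) on chromosome Y, with 18 of 96. Of peaks listed for genes with a mean FPKM under 1, 7.07% overlapped the listed transcript of another gene with a peak, against 3.11% for expressed genes.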
